A study of Mus musculus with 22 samples.

Results

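Expression of 7 genes that mark tuft cells was followed in the distal colon of 22 mice. The members were Pou2f3, Gfi1b, Trpm5, Sh2d6, Avil, Dclk1 and Alox5ap, taken by their symbols from a table of read counts for 46078 genes, and 7 of 7 were found. RNA sequencing compared 8 C57BL/6 mice (4 males and 4 females, wild type, 14 weeks old) with 7 Winnie mice (3 males and 4 females, 14 weeks old) and 7 Winnie-Prolapse mice (4 males and 3 females, 18 weeks old). Winnie mice carry a missense mutation of Muc2, the gene of the main secreted mucin of goblet cells, and develop colitis spontaneously, and the Winnie-Prolapse mice were labelled as having prolapse as well. Age went with the Winnie-Prolapse group, so the effects of age and prolapse cannot be told apart. Pieces of distal colon were sampled, with muscle, nerves and immune cells as well as epithelium. The p-values measure the spread between these samples.

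Tuft cells are rare chemosensory cells of the gut epithelium. They sense luminal signals with a pathway shared with taste cells, in which a G protein and a phospholipase release calcium and open the channel Trpm5. They are known for making interleukin-25, acetylcholine, prostaglandins and cysteinyl leukotrienes, and for an expansion driven by type 2 cytokines in helminth infection.

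Libraries held 24.8 to 36.3 M counts, and a gene with no count could have had up to 3 counts, or 0.0825 to 0.121 CPM by library. Such limits cover counting error only. Levels are given as CPM, counts scaled to a common library total, and differences as log2 fold changes with their standard errors from edgeR. In Winnie-Prolapse replicate 6, 18.9% of the counts came from 7 milk protein genes, against 0.000192% to 0.00589% in the other 21 libraries. The 12 epithelial markers summed to 15205 to 17822 CPM in the C57BL/6 group, 15578 to 21861 in the Winnie group and 12221 to 22550 in the Winnie-Prolapse group, so epithelium was present in every library. The 6 smooth muscle markers summed to 6686 to 12048 CPM in the C57BL/6 group, 1986 to 7309 in the Winnie group and 1309 to 3178 in the Winnie-Prolapse group.

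All 7 members had at least 1 count in every library, and the label of a tuft cell signature was then checked by asking whether they varied together between mice. Levels per kilobase of annotated exon in C57BL/6 were highest for Alox5ap, at 3.33 ± 0.632 CPM per kb (SD, n = 8), followed by Sh2d6 at 2.96 ± 2.60 and Avil at 1.80 ± 0.676. Dclk1 came next at 1.16 ± 0.650, then Trpm5 at 0.778 ± 0.790, Pou2f3 at 0.327 ± 0.289 and Gfi1b at 0.179 ± 0.0941. In this order no gene differed from its neighbour by more than the larger of the SDs of the pair. Exon lengths were those of all transcripts of a gene merged, which lowers the per-kilobase level of a gene with long alternative exons such as Dclk1. On GRCm38 the genes lie at chr9:43123939-43210369 (Pou2f3, minus strand), chr2:28609450-28621982 (Gfi1b, minus strand), chr7:143069153-143094642 (Trpm5, minus strand), chr6:72513641-72521707 (Sh2d6, minus strand), chr10:127000709-127020994 (Avil, plus strand), chr3:55242364-55539068 (Dclk1, plus strand) and chr5:149264767-149288153 (Alox5ap, plus strand), all protein-coding.

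Pou2f3 is the transcription factor that tuft cells require, and it binds the octamer motif of POU factors. The members' promoter windows, from 250 bases before to 50 bases after the RefSeq start site on GRCm38.p6, were therefore searched on both strands for the octamer ATGCAAAT and for its first 7 letters ATGCAAA. Windows were found for 5 of the 7 members, 6 windows in all (Dclk1 has 2 start sites), and Pou2f3 and Alox5ap were not matched. The full octamer was in 0 of the 6 windows, and it was in 1.74% of all 32817 windows. The 7-letter form was in the window of Avil, where it occurred 2 times, and in no other member's window. It was in 4.63% of all windows, and 0.293% held it at least 2 times. In Avil, the matches began 115 and 15 bases before the start site, at chr10:127000594-127000600 on the reverse strand and chr10:127000694-127000700 on the forward strand. These are matches of letters and not measured binding. The 250 bases before the start site are shown for Avil, which held the matches (chr10:127000459-127000708, plus strand), and for Trpm5 (chr7:143094643-143094892, minus strand) and Sh2d6 (chr6:72520037-72520286, minus strand), the genes with the largest falls below, each from 5′ to 3′ along its own gene, with matches to ATGCAAA or its reverse complement TTTGCAT in capitals.
Avil: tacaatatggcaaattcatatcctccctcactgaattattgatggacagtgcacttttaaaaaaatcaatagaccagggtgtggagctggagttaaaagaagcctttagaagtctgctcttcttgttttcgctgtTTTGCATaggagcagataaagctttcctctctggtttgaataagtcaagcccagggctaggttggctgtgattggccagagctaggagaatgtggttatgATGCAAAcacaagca
Trpm5: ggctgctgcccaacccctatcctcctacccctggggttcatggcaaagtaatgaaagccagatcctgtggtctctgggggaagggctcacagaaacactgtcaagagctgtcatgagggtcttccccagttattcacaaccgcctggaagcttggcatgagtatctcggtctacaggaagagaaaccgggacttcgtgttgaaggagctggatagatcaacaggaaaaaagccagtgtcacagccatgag
Sh2d6: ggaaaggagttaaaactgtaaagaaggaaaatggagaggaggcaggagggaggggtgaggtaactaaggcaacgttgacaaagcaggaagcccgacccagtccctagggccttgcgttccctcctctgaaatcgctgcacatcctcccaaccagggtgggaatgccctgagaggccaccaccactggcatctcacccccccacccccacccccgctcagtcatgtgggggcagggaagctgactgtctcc

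**Figure D1:**
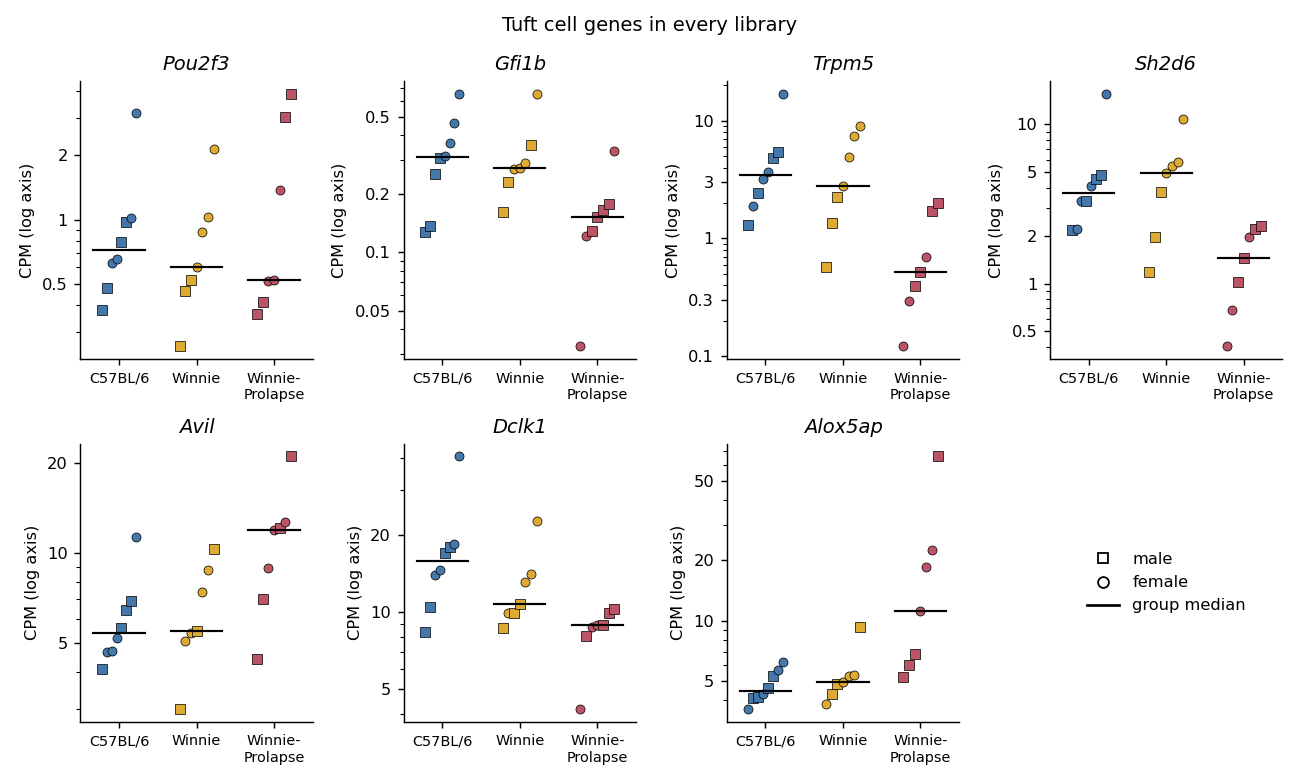
CPM of the 7 genes (log axes) in each library, by group. Squares are males, circles are females and bars are group medians. Trpm5 and Sh2d6 lie lowest in Winnie-Prolapse, Alox5ap and Avil highest, and C57BL/6 replicate 7 is the top C57BL/6 point in each panel.

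The first comparison asked whether tuft cell genes differed between Winnie and C57BL/6 mice of the same age. None of the 6 members tested passed the limits of the study, an adjusted p under 0.001 and a 1.5-fold change, by the edgeR quasi-likelihood test with Benjamini-Hochberg adjustment, where 0.0925% of 17289 genes did. At an adjusted p under 0.05 and 1.5-fold, 0 members were higher, against 7.42% of all genes tested, and 0 lower, against 8.53%. DESeq2 and limma-voom called 0 members at either limit, and at the study's limits they called 1203 and 0 genes in all. At an unadjusted p under 0.05 there were 0 of the 6 members and 6901 of the 17289 genes. Gfi1b was removed by the filter on low counts.

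Trpm5, the calcium-activated cation channel of the taste-type pathway, ran from 1.30 to 17.0 CPM with a median of 3.45 in C57BL/6 and from 0.577 to 9.09 with a median of 2.81 in Winnie. The ranges overlapped almost throughout, and the log2 difference was -0.19 ± 0.58 (edgeR quasi-likelihood test, adjusted p = 0.832). Sh2d6, an SH2 domain adaptor, had medians of 3.70 CPM in C57BL/6 and 4.95 in Winnie. Its log2 difference was 0.05 ± 0.47 (edgeR, adjusted p = 0.946). Dclk1, a doublecortin-like kinase used as a tuft cell marker in mice and also made by neurons, showed -0.39 ± 0.30 on the log2 scale (edgeR, adjusted p = 0.342). The other 3 tested members, Pou2f3, Avil and Alox5ap, differed by -0.17, 0.17 and 0.26 on the log2 scale, with adjusted p of 0.812, 0.644 and 0.277 (edgeR). The spread between mice was wide, and these p-values do not show that the groups were alike. Without C57BL/6 replicate 7, the highest of its group for all 7 members, the log2 differences of Trpm5, Sh2d6 and Pou2f3 were 0.42, 0.57 and 0.35, and those of Dclk1 and Avil -0.094 and 0.35. Without Winnie replicate 2, those of Avil and Alox5ap were 0.039 and 0.11.

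The second comparison set the Winnie-Prolapse mice against C57BL/6, and here the members moved in both directions. At the study's limits edgeR called 0 of the 6 tested members, against 18.3% of 17397 genes, with 5 of the 6, and 10174 of the 17397 genes, at an unadjusted p under 0.05. DESeq2 called 3 at those limits, Trpm5, Sh2d6 and Alox5ap, with 5004 of 29803 genes, and limma-voom 0, with 3054 of 17397 genes. At an adjusted p under 0.05 and 1.5-fold, edgeR called 3 members lower, Trpm5, Sh2d6 and Dclk1, where 17.7% of all genes were lower, and 2 higher, Alox5ap and Avil, where 16.7% were higher. All 5 kept these calls when any 1 library was left out.

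Trpm5 fell 5.65-fold. Its levels in the 7 Winnie-Prolapse libraries were 2.01, 0.517, 1.69, 0.397, 0.294, 0.121 and 0.699 CPM, against a lowest of 1.30, a median of 3.45 and a highest of 17.0 in the 8 C57BL/6 libraries. Of the Winnie-Prolapse libraries 5 lay below every C57BL/6 library, and replicates 1 and 3 lay inside the C57BL/6 range. The log2 change was -2.50 ± 0.63 (edgeR quasi-likelihood test, adjusted p = 0.00391). It was -1.86, or 3.63-fold, without C57BL/6 replicate 7, and -2.30 without Winnie-Prolapse replicate 6. In this bulk tissue, fewer tuft cells and less RNA per tuft cell cannot be told apart. The summed level of 13 squamous epithelium markers was 108.4 and 116.8 CPM in Winnie-Prolapse replicates 1 and 3 and 536.2 to 3874 in the 5 libraries below the C57BL/6 range, and its part in the falls of Trpm5 and Sh2d6 was not tested. Trpm5 shares 220 exon bases with Tssc4 on the other strand, whose mean level was 16.5 CPM in C57BL/6 and 22.2 in Winnie-Prolapse.

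Sh2d6 fell 3.30-fold. It measured 2.31, 1.45, 2.21, 1.02, 0.686, 0.403 and 1.95 CPM in the Winnie-Prolapse libraries, against 2.16 to 15.6 with a median of 3.70 in C57BL/6. Again 5 of the 7 libraries lay below every C57BL/6 library, and the ones inside the C57BL/6 range were replicates 1 and 3, as for Trpm5. The log2 change was -1.72 ± 0.47 (edgeR, adjusted p = 0.00629), and -1.18 without C57BL/6 replicate 7.

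Dclk1 fell 2.01-fold. It ranged from 4.19 to 10.3 CPM with a median of 8.92 in Winnie-Prolapse and from 8.41 to 40.7 with a median of 15.9 in C57BL/6. The groups overlapped, and 2 Winnie-Prolapse libraries lay below the C57BL/6 range. The log2 change was -1.01 ± 0.28 (edgeR, adjusted p = 0.00733), and -0.70 without C57BL/6 replicate 7. Of 12 neuron and glia markers, 10 were lower in Winnie-Prolapse than in C57BL/6 at the same limits. In Winnie 12 of 12 were lower, where Dclk1 did not pass. Their summed level was 103 to 239.8 CPM in the C57BL/6 group, 33.6 to 112.7 in the Winnie group and 37.4 to 64.9 in the Winnie-Prolapse group, with medians of 45.9 in Winnie and 47.9 in Winnie-Prolapse and none of the 12 at 0 throughout a group. C57BL/6 replicate 7 had the highest sum and the highest Dclk1. The part of nerve tissue in the Dclk1 result was not tested.

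Alox5ap, the 5-lipoxygenase activating protein needed for leukotriene synthesis, rose 4.23-fold. Its 7 Winnie-Prolapse levels were 5.24, 5.98, 6.81, 66.1, 22.5, 18.4 and 11.2 CPM, against 3.61 to 6.23 with a median of 4.44 in C57BL/6. The C57BL/6 libraries were close to each other, 5 Winnie-Prolapse libraries lay above all of them, and replicates 1 and 2 lay within their range. The log2 change was 2.08 ± 0.46 (edgeR, adjusted p = 0.00139), and 1.45 or 2.73-fold without Winnie-Prolapse replicate 4, the highest library. Alox5ap is also made by myeloid cells, and 12 of 12 myeloid markers were higher in Winnie-Prolapse, where 16.7% of all genes were. S100a9, which is among them, was removed by the filter in Winnie against C57BL/6. It could be tested here only because Winnie-Prolapse was high, so this count was partly set by the filter. The 12 markers summed to 82.9 to 258.0 CPM in C57BL/6, 159.9 to 438.3 in Winnie and 338.2 to 1666 in Winnie-Prolapse. None was at 0 throughout a group. By library, the sum was 1666 in replicate 4, 959 in replicate 5, 889 in replicate 7 and 789 in replicate 6, and 338.2 to 463 in the other 3. The 4 libraries with the highest Alox5ap were the same 4, and the part of myeloid cells was not tested. Alox5ap shares 189 of its 1420 exon bases with the antisense gene Gm19719, which was not analysed here.

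Avil, which encodes advillin, an actin-binding protein of the villin family, rose 1.90-fold. It measured 4.44 to 21.1 CPM with a median of 12.0 in Winnie-Prolapse and 4.09 to 11.3 with a median of 5.40 in C57BL/6. The groups overlapped, with 4 of the 7 Winnie-Prolapse libraries above the C57BL/6 range. The log2 change was 0.93 ± 0.27 (edgeR, adjusted p = 0.0102), and 1.13 without C57BL/6 replicate 7. Avil thus moved against Trpm5 and Sh2d6 in this comparison. It shares 165 exon bases with Tsfm on the other strand, whose mean level was 14.2 CPM in C57BL/6 and 15.2 in Winnie-Prolapse.

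Pou2f3 did not pass the test, at a log2 difference of 0.52 ± 0.56 (edgeR, adjusted p = 0.453). The difference was 0.12 without Winnie-Prolapse replicate 2, 1.05 without C57BL/6 replicate 7 and -0.56 in females only. Its Winnie-Prolapse levels were split, at 0.414, 3.88, 0.363, 3.01, 0.523, 1.37 and 0.515 CPM, against 0.381 to 3.15 with a median of 0.721 in C57BL/6. Replicates 2, 4 and 6 were high, and the other 4 lay at or below 0.523. In those 3 libraries Trpm5 was at 0.517, 0.397 and 0.121 CPM and Sh2d6 at 1.45, 1.02 and 0.403. Pou2f3 is also known in squamous epithelium such as epidermis, and the summed level of squamous markers in this group did not overlap that of C57BL/6. The 13 markers summed to 5.82 to 49.95 CPM in the C57BL/6 group, 8.79 to 122.9 in the Winnie group and 108.4 to 3874 in the Winnie-Prolapse group, with Ivl and Sprr1b at 0 in every C57BL/6 library. In C57BL/6, 5 of the 13 were at or below 3 counts in every library. No count of tested markers is given, because a marker this low in C57BL/6 passed the filter only where Winnie-Prolapse was high. The sums were 3034, 2524 and 767 CPM in replicates 2, 4 and 6, but 3874 in replicate 7, where Pou2f3 was at 0.515. The part of squamous cells in the Pou2f3 level was not tested.

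**Figure D2:**
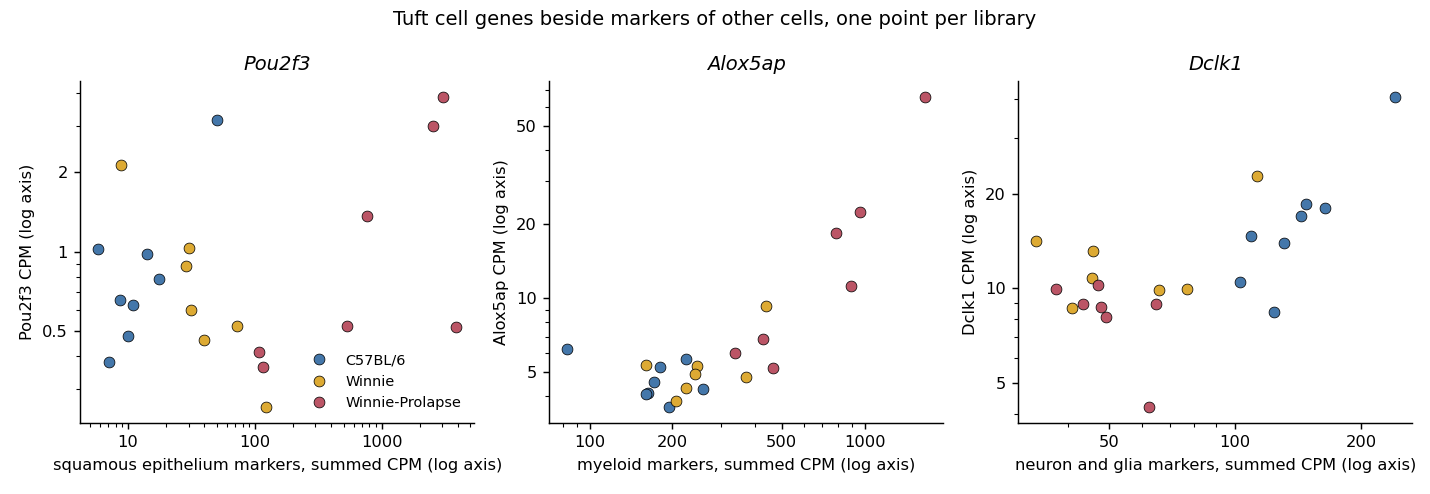
Pou2f3 against the summed CPM of 13 squamous markers, Alox5ap against 12 myeloid markers and Dclk1 against 12 neuron and glia markers, 1 point per library, all axes logarithmic. The Winnie-Prolapse library with 66.1 CPM of Alox5ap has the highest myeloid sum, and the C57BL/6 library with 40.7 CPM of Dclk1 the highest neuron and glia sum.

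Gfi1b, a zinc finger repressor best known from megakaryocytes and red cell precursors, was at the edge of detection. It had 1 to 20 counts per library, and its level ran from 0.127 to 0.652 CPM in C57BL/6, from 0.160 to 0.656 in Winnie and from 0.0327 to 0.331 in Winnie-Prolapse. The 3 ranges overlapped, with 1 count in Winnie-Prolapse replicate 5. Fitted without the filter, the log2 difference of Winnie-Prolapse from C57BL/6 was -0.93 ± 0.42 (edgeR, adjusted p = 0.101) and from Winnie -0.99 ± 0.41 (edgeR, adjusted p = 0.165). Without Winnie-Prolapse replicate 7, the highest of its group, the difference from C57BL/6 was -1.20 and passed an adjusted p under 0.05 (edgeR, adjusted p = 0.0398). No other fit of this comparison with 1 library left out passed. Without C57BL/6 replicate 7, the highest of its group, the difference was -0.71 (edgeR, adjusted p = 0.192). The 10 megakaryocyte and red cell markers summed to 19.5 to 426.1 CPM in the C57BL/6 group, 15.3 to 52.8 in the Winnie group and 114.3 to 1346 in the Winnie-Prolapse group. Gata1 was at or below 3 counts in every library, and the part of these cells in the Gfi1b level was not tested.

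**Figure D3:**
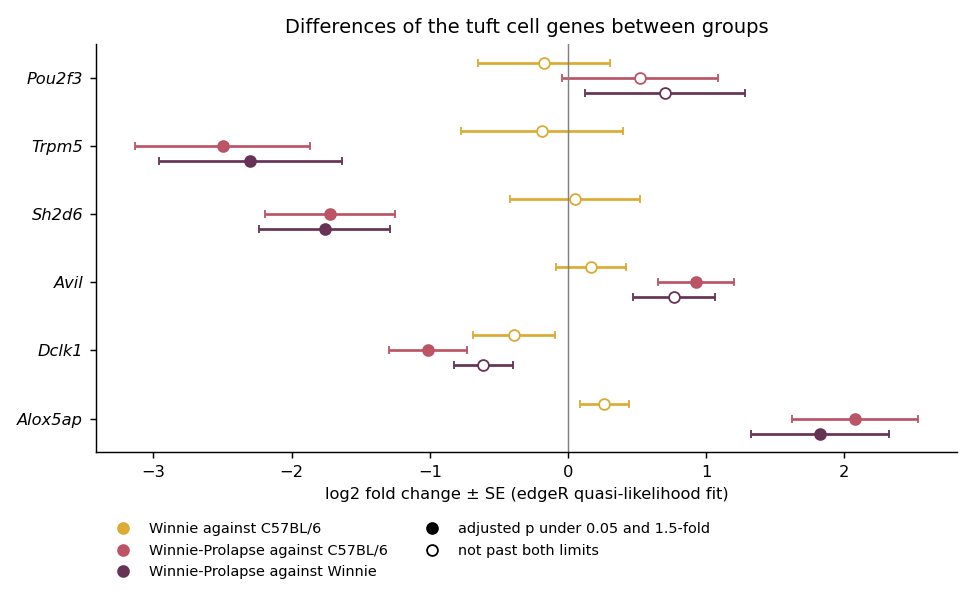
Log2 fold change with its standard error for the 6 tested members in the 3 comparisons. Filled points passed an adjusted p under 0.05 and 1.5-fold in the edgeR fit. Trpm5 (-2.50) and Sh2d6 (-1.72) lie left of 0 and Alox5ap (2.08) and Avil (0.93) right of it in Winnie-Prolapse against C57BL/6.

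The third comparison, of Winnie-Prolapse with Winnie, shares each group with another comparison. At the study's limits edgeR called 0 members and 0 of 17041 genes (0%), with 5 members and 4743 genes at an unadjusted p under 0.05, while DESeq2 called 644 genes and 0 members. At an adjusted p under 0.05 and 1.5-fold, 2 members were lower, Trpm5 and Sh2d6 (2.72% of all genes), and 1 higher, Alox5ap (4.27%). Trpm5 changed by -2.30 ± 0.66 on the log2 scale (edgeR, adjusted p = 0.0446), and 4 of the 7 Winnie-Prolapse libraries lay below the Winnie range of 0.577 to 9.09 CPM. Sh2d6 changed by -1.76 ± 0.47 (edgeR, adjusted p = 0.0360), with 3 libraries below the Winnie range of 1.19 to 10.8 CPM. Alox5ap changed by 1.82 ± 0.50 (edgeR, adjusted p = 0.0374), with 4 libraries above the Winnie range of 3.82 to 9.29 CPM.

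These calls lay close to the threshold, and 0 of them held with limma-voom or with sex as covariate. The call for Trpm5 held in 4 of 14 fits that left out 1 library, those without Winnie replicates 2 or 3 or Winnie-Prolapse replicates 1 or 3. The call for Sh2d6 held in 6, without Winnie replicates 1, 2 or 3 or Winnie-Prolapse replicates 1, 3 or 7. The call for Alox5ap held in 5, without Winnie replicate 2 or Winnie-Prolapse replicates 1, 2, 3 or 7, and its log2 change was 1.18 without Winnie-Prolapse replicate 4. In these fits the log2 change ran from -2.68 to -2.01 for Trpm5 and from -1.94 to -1.46 for Sh2d6, and the highest adjusted p of any was 0.0957. In males only, the log2 difference was -0.22 for Trpm5 and -0.38 for Sh2d6, and in females only -4.00 and -2.71. Trpm5 averaged 1.39 ± 0.841 CPM (SD, n = 3) in male Winnie and 1.16 ± 0.818 (SD, n = 4) in male Winnie-Prolapse mice. Whether the sexes differed in this comparison was not tested. Dclk1 (-0.61, adjusted p = 0.0825), Avil (0.77, adjusted p = 0.111) and Pou2f3 (0.71, adjusted p = 0.455) did not pass in edgeR. Dclk1 passed only without Winnie replicate 2 (adjusted p = 0.0402) and Avil only without Winnie-Prolapse replicate 1 (adjusted p = 0.0420) among the fits with 1 library left out.

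The sexes were compared in 1 fit of the 22 libraries that also held the group. None of the 6 tested members differed at an adjusted p under 0.05, where 0.0788% of 17769 genes did by edgeR, and 0 reached an unadjusted p under 0.05, where 777 genes did. DESeq2 called 24 genes and 0 members. In the interaction of sex with Winnie against C57BL/6, edgeR called 0 of 17769 genes (0%) and 0 members, and DESeq2 146 genes and 0 members. In the interaction of sex with Winnie-Prolapse against C57BL/6, edgeR again called 0 genes (0%) and 0 members, and DESeq2 4 genes and 0 members. The largest interaction of a member was for Trpm5, at 2.46 ± 1.11 on the log2 scale (edgeR, unadjusted p = 0.0395, adjusted p = 0.961). Trpm5 was at 6.45 ± 7.07 CPM (SD, n = 4) in female and 3.51 ± 1.97 (SD, n = 4) in male C57BL/6 mice, and at 0.371 ± 0.297 (SD, n = 3) in female and 1.16 ± 0.818 (SD, n = 4) in male Winnie-Prolapse mice. Within sexes, the Winnie-Prolapse difference from C57BL/6 was -3.96 on the log2 scale in females and -1.50 in males, and in the 4 against 4 males no member passed, with edgeR adjusted p from 0.0646 to 0.174, where 4205 of 17394 genes passed. In the females 3 members passed, with 4755 of 17562 genes. The highest C57BL/6 library for Trpm5 (replicate 7, 17.0 CPM) and the lowest Winnie-Prolapse library (replicate 6, 0.121 CPM) were both female. The fits within sexes were not repeated without these libraries.

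**Figure D4:**
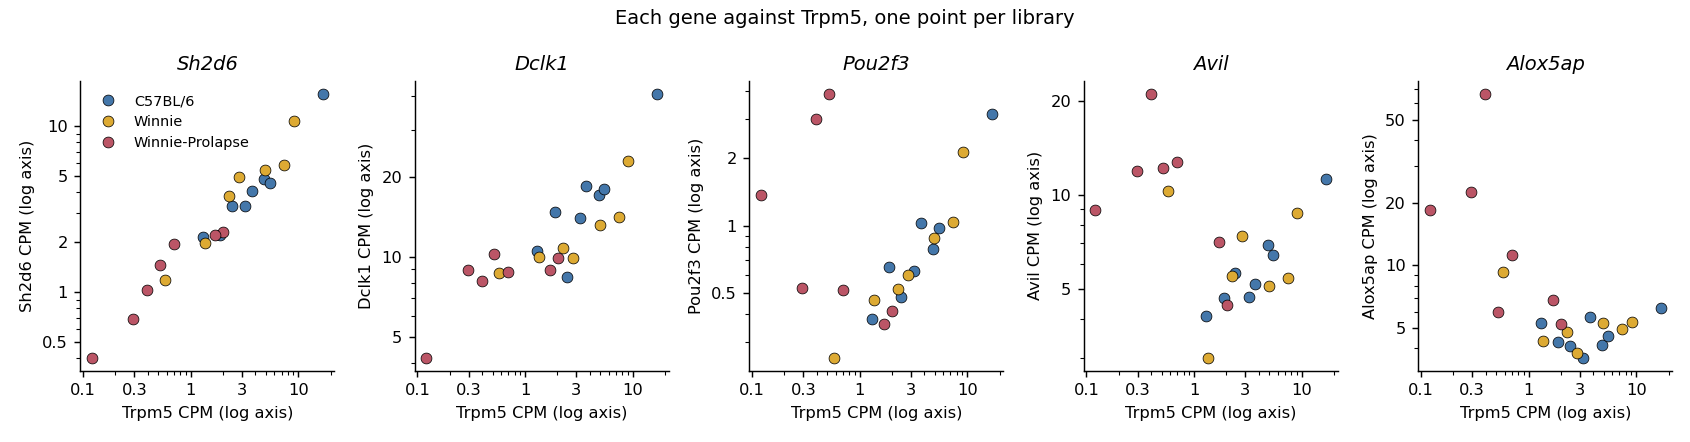
Sh2d6, Dclk1, Pou2f3, Avil and Alox5ap against Trpm5, CPM on log axes, 1 point per library. Sh2d6 is low where Trpm5 is low, and the Winnie-Prolapse library with 66.1 CPM of Alox5ap had 0.397 CPM of Trpm5.

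How far the members varied together within a group was described with log2 CPM centred on each group mean. The reference was the mean of Pou2f3, Trpm5, Avil and Sh2d6, so the values for these 4 are partly built in. Over 22 libraries Pearson's r with the reference was 0.910 for Sh2d6, 0.861 for Trpm5, 0.859 for Dclk1, 0.718 for Pou2f3, 0.437 for Avil and -0.058 for Alox5ap. All points share their library's depth and tissue content, and no p is given. Within C57BL/6 the values were 0.990 for Sh2d6, 0.991 for Trpm5, 0.909 for Dclk1, 0.968 for Pou2f3, 0.964 for Avil and 0.503 for Alox5ap. Within Winnie-Prolapse they were 0.685 for Sh2d6, 0.536 for Trpm5, 0.516 for Dclk1, 0.259 for Pou2f3, 0.045 for Avil and -0.287 for Alox5ap. Within Winnie, Avil stood at 0.282 and Alox5ap at -0.262, with the other 4 between 0.943 and 0.982. Neuron markers were as high within C57BL/6 (Uchl1 at 0.972), where replicate 7 was the highest library for all 7 members, so these values do not single out tuft cells. Ratios of counts to those of Trpm5 were also taken, with genes of different length compared only between groups. The median was 1.06 Sh2d6 counts per Trpm5 count in the C57BL/6 group, 1.46 in the Winnie group and 2.58 in the Winnie-Prolapse group. For Avil it was 1.44, 2.23 and 23.6, and for Pou2f3 0.197, 0.232 and 1.78. Within Winnie-Prolapse the ratios ran from 1.15 to 3.33 for Sh2d6, 2.21 to 74.0 for Avil and 0.206 to 11.3 for Pou2f3. Trpm5 had few counts there, down to 3 in replicate 6, so these ratios are imprecise.

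The 10 other genes most like the reference, among 15045 ranked, were Matk (r = 0.898), Sh2d7 (0.896), Tspan6 (0.888), Rimkla (0.882), Guca2a (0.868), Rgs17 (0.865), Cdkn1c (0.849), Mapre3 (0.840), Vsig2 (0.831) and Muc3a (0.828). Matk, a tyrosine kinase, and Sh2d7, an SH2 domain protein, were in the lists of tuft cell genes. Of the 39 listed tuft genes that passed the filter, 18 had r above 0.5. Some of the 18 were too low in mean level to be ranked. Over the genes ranked the share was 7.03%, which is of a different set of genes. Of the taste-type genes that passed the filter, r was highest for Gnat3, the taste G protein subunit gustducin (0.851), and Rgs13 (0.820). Gnat3 was not among the genes ranked, so it is absent from the 10 above. Ffar3 (0.656), Rgs2 (0.63) and Itpr2 (0.534) came next. Tas1r3 (0.302) and Plcb2 (0.138) were lower, and Itpr3 was at -0.628.

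Other tuft cell genes were then read in 4 lists of 45 genes, on taste-type signalling, effectors, transcription factors, and signalling and cytoskeleton. In Winnie against C57BL/6, 39 were tested and 5 were lower at an adjusted p under 0.05 and 1.5-fold (edgeR), against 8.53% of all genes, while the other 34 did not pass. Their median log2 difference was -0.01, and that of all genes was -0.01. The 5 were Chat (-1.05), which makes acetylcholine, Ffar3 (-1.39), a short-chain fatty acid receptor, Itpr2 (-0.62), Ascl2 (-0.65) and Nrep (-0.98). In the same comparison 12 of 12 neuron and glia markers and 6 of 6 smooth muscle markers were lower, and their part in these falls was not tested. In Winnie-Prolapse against C57BL/6, 34 were tested, 11 were lower (17.7% of all genes were) and 5 higher (16.7% of all genes were), and the median was -0.35 against -0.01 over all genes. The filter kept 34 here against 39 in Winnie against C57BL/6, and Gnat3, which was low in Winnie-Prolapse, was among those removed. A gene that fell could thus be lost, so these counts were partly set by the filter and do not cover all 45.

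Among the effectors, Chat, which is also made by enteric neurons, was at 0.0403 to 0.787 CPM in Winnie-Prolapse and 1.02 to 3.08 in C57BL/6, with no overlap (log2 change -2.21 ± 0.43, edgeR adjusted p = 0.000609). Hpgds, the prostaglandin D synthase of tuft cells and mast cells, changed by -1.68 ± 0.37 (edgeR, adjusted p = 0.00136). Ltc4s, which forms leukotriene C4 downstream of Alox5ap, changed by -1.14 ± 0.26 (edgeR, adjusted p = 0.00197), with no overlap between the groups. Ltc4s and Alox5ap thus moved in opposite directions, and Alox5, the lipoxygenase itself, was at -0.08 ± 0.42 (edgeR, adjusted p = 0.882). Il25, the cytokine of tuft cells, was at 0 in 1 of 8, 3 of 7 and 4 of 7 libraries of the C57BL/6, Winnie and Winnie-Prolapse groups, and its highest level was 0.181 CPM. Any change of Il25 was not detectable at this depth.

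Of the taste-type genes, Tas1r3, a taste receptor subunit, changed by -1.01 ± 0.18 (edgeR, adjusted p = 0.000330) and Ffar3 by -2.57 ± 0.49 (edgeR, adjusted p = 0.000460). Of the 7 tested, 3 were lower, with Itpr2 at -0.73, where 17.7% of all genes were, and 4 did not pass. Itpr3 was at 0.50 ± 0.12 (edgeR, adjusted p = 0.00261), under the 1.5-fold limit. Plcb2 was at 0.60 ± 0.35 (edgeR, adjusted p = 0.163), and Rgs13 and Rgs2 were at -1.31 and -0.70. Gnat3 was tested in Winnie against C57BL/6 only. It was at 0.0635 to 2.14 CPM in C57BL/6 and 0 to 0.266 in Winnie-Prolapse. Of the transcription factors, Ascl2, known from crypt stem cells as well, changed by -1.50 ± 0.22 with no overlap (edgeR, adjusted p = 6.21e-05). Colca2, a coactivator of Pou2f3, was at -0.38 ± 0.26 (edgeR, adjusted p = 0.221). Sh2d7 fell by 2.58 ± 0.65 on the log2 scale (edgeR, adjusted p = 0.00363).

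The number of tuft-list genes that were higher in Winnie-Prolapse, 5 of 34, was not above the share of 16.7% over all genes. They included Inpp5d (1.10), Pik3r5 (0.96), Plcg2 (0.89) and Vav1 (0.80), with edgeR adjusted p from 0.00181 to 0.0136. They are signalling genes of tuft cells that are also expressed by blood cells, and the myeloid markers moved with them, as given above for Alox5ap. The part of blood cells in these results was not tested. In Winnie-Prolapse against Winnie, 4 of 33 tested tuft-list genes were lower, Sh2d7 (-2.54), Cbr3 (-1.27), Hpgds (-1.02) and Ascl2 (-0.84), and 29 did not pass (edgeR, adjusted p under 0.05 and 1.5-fold), where 2.72% of all genes were lower.

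**Figure D5:**
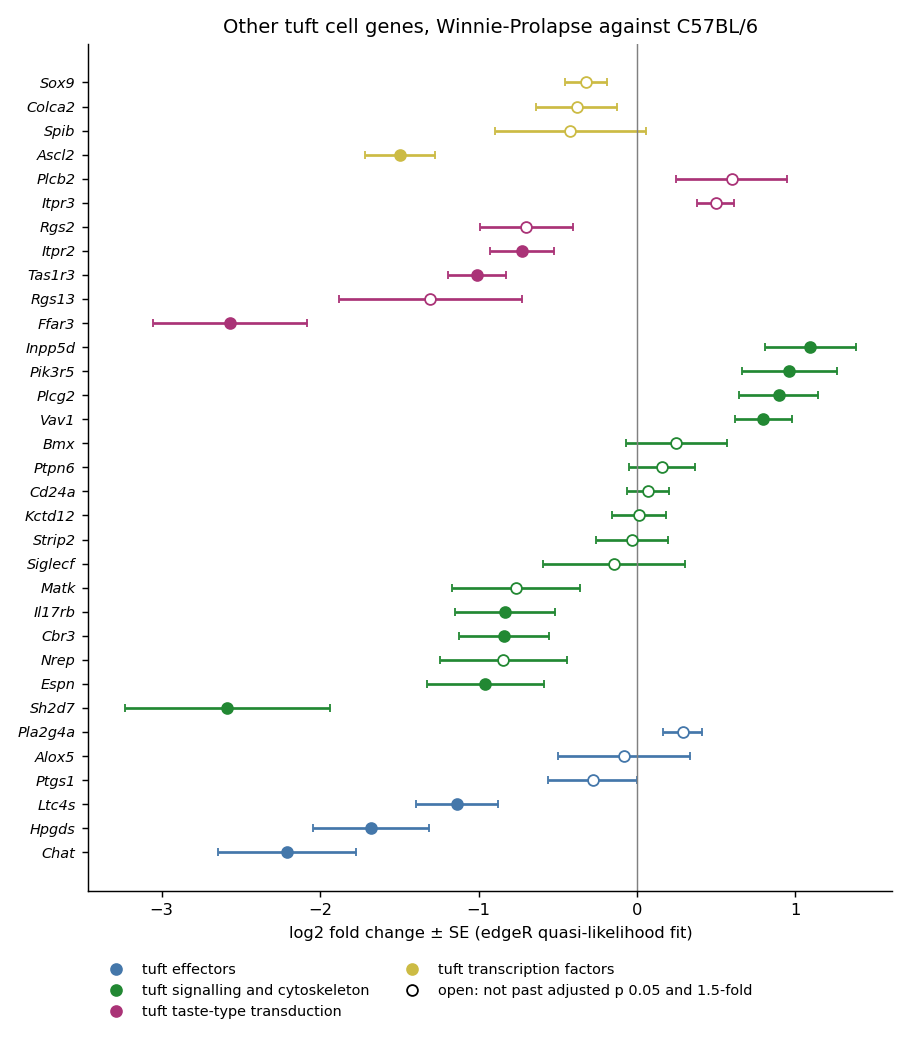
Log2 fold change with standard error of 33 of the 34 tested genes of the 4 tuft lists, Winnie-Prolapse against C57BL/6. Filled points passed an adjusted p under 0.05 and 1.5-fold in the edgeR fit, 11 to the left and 4 to the right.

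Genes of the type 2 circuit that acts on tuft cells were read from a list of 13. In Winnie-Prolapse against C57BL/6, 6 of the 9 tested were higher at an adjusted p under 0.05 and 1.5-fold, where 16.7% of all genes were, and 3 did not pass (edgeR). In Winnie against C57BL/6, 2 of the 9 were higher (7.42% of all genes) and 1 lower (8.53%). Il4ra, the receptor chain for interleukins 4 and 13, was at 64.0 to 152.5 CPM in Winnie-Prolapse and 15.7 to 41.0 in C57BL/6, with no overlap (log2 change 2.35 ± 0.22, adjusted p = 1.21e-06). Stat6, the factor that acts below it, was at 0.16 ± 0.12 (edgeR, adjusted p = 0.277). The cytokines Il4, Il5, Il13 and Il9, named after their values were seen, were at or below 3 counts in every library, and Il9 was at 0 in all 22. Of the mast cell markers 3 of the 4 tested were higher, Hdc, Mcpt2 and Mcpt1, while Tpsb2 did not pass (edgeR, adjusted p = 0.0630) and 4 were not tested. A marker near 0 in C57BL/6 could be tested only where Winnie-Prolapse was high, so this count was partly set by the filter. The 8 summed to 1.23 to 3.50 CPM in C57BL/6 and 12.99 to 74.0 in Winnie-Prolapse, with Hdc the most abundant. The part of mast and myeloid cells in Il4ra was not tested.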

How the data were processed

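Poly(A) RNA from distal colon was sequenced in 22 mice. Per the labels and the study's methods, the authors aligned reads to GRCm38 with STAR and deposited featureCounts read counts per gene, not normalized. The strand setting of the counting was not given in the sources used here, so reads of a gene and of an overlapping gene on the other strand may be mixed. Counts were tested as deposited with edgeR 4.0.16 in R 4.3.3 (TMM scaling, filterByExpr, quasi-likelihood F test, Benjamini-Hochberg adjustment over all genes tested), each comparison on its 2 groups. The limits were an adjusted p under 0.001 and a 1.5-fold change, with a second limit of 0.05. The standard error was the log2 fold change divided by the square root of F. Gfi1b, which the filter removed, was fitted without it. DESeq2 1.42.0, limma-voom (limma 3.58.1), other scalings and filters, sex and the omission of each library were tried as alternatives. Omitting C57BL/6 replicate 7 with Winnie-Prolapse replicate 6, and scaling Gfi1b by library totals, were chosen after seeing the data. Replicates were numbered in accession order, which pairs nothing. No 2 libraries of a group agreed within sampling noise (lowest chi-square per degree of freedom 28.8). The fits were tested on simulated data. Exon lengths came from GENCODE M21 and promoter windows from RefSeq.

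The members and gene lists were chosen with earlier results of these data known. Genes named were the members, any gene of the 4 other tuft lists, the 4 most abundant genes at most of each other list, and the 10 genes most like the reference. Overlapping genes and markers at or near 0 (Tsfm, Tssc4, Gm19719, Ivl, Sprr1b, Gata1, Il4, Il5, Il13, Il9) were named after their values were seen. The values of 1 gene of these lists are not reported here.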

Additional observations from a re-analysis of the deposited data

Results flagged for a closer look

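In 11 of the 21 sets of values (7 genes in 3 groups) the highest or lowest library stood apart from the rest by Dixon's test at the 95% level, where chance gives about 1.05. These sets are not independent, since the genes share libraries. The number given by chance also assumes normally distributed values, which was not checked for CPM. C57BL/6 replicate 7 was apart for 5 genes. It had 40.7 CPM of Dclk1 (next 18.5), 3.15 of Pou2f3 (next 1.02), 17.0 of Trpm5 (next 5.46), 11.3 of Avil (next 6.90) and 15.6 of Sh2d6 (next 4.78). The same library had the highest neuron and glia sum (239.8 CPM) and smooth muscle sum (12048 CPM) and the lowest myeloid sum (82.9 CPM) of all 22. Winnie replicate 5 was apart for 3 genes, at 22.8 CPM of Dclk1 (next 14.2), 2.13 of Pou2f3 (next 1.04) and 0.656 of Gfi1b (next 0.358). Alox5ap stood apart in Winnie replicate 2, at 9.29 CPM (next 5.35), and in Winnie-Prolapse replicate 4, at 66.1 CPM (next 22.5). Dclk1 was lowest in Winnie-Prolapse replicate 6, at 4.19 CPM (next 8.10), the library in which milk protein genes took 18.9% of the counts. The part of tissue content in these values was not tested.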

How the results depend on the processing

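At the study's limits, the number of members called in Winnie-Prolapse against C57BL/6 was 0 in edgeR, 3 with DESeq2, 1 with all 3 groups in one fit, 5 with an adjusted p under 0.05, and 0 to 1 with a library left out (1, Alox5ap, without Winnie-Prolapse replicate 1, 2 or 3). At 0.05 it was 5, with 0 in males only (4205 of 17394 genes) and 3 in females only (4755 of 17562 genes). In Winnie-Prolapse against Winnie, 0 were called at 0.001 and 3 at 0.05, the latter becoming 0 with limma-voom, with sex as covariate or in males only, 4 with DESeq2, and 0 to 4 with a library left out. Among the alternatives other than leaving out 1 library, Alox5ap and Sh2d6 were each called in 10 of 13 and Trpm5 in 8 of 12. Directions turned mainly in Winnie against C57BL/6. There Sh2d6 (0.05) was -0.043 with library totals, -0.18 with scaling to epithelial genes, -0.16 with sex as covariate, -0.63 in males and -0.25 to 0.57 with a library left out. Avil was -0.074 with epithelial scaling, and Trpm5 0.017 in females and -0.48 to 0.42 with a library left out. Pou2f3 ran from -0.56 to 0.35 and Gfi1b from -0.18 to 0.29 with a library left out, and Gfi1b was -0.027 with library totals. Pou2f3 in females was -0.56 in Winnie-Prolapse against C57BL/6 and -0.46 against Winnie. Of the 10 genes most like the reference, 5 were shared with Spearman's rho, 5 without the Winnie-Prolapse libraries, and 0 within C57BL/6, 0 within Winnie and 0 within Winnie-Prolapse alone. The causes were not tested. Counts of 1 to 20 per library limit Gfi1b, and age cannot be told apart from prolapse. No paired analysis was possible because the labels give no shared replicate numbers.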
